A study of Homo sapiens with 3 samples.

Results

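A set of 7 long noncoding RNA (lncRNA) genes, out of 14949 genes in the table, was followed through 3 RNA-sequencing libraries of MIAPaCa-2 cells, a long-established line from a human pancreatic carcinoma. They were chosen by symbol, as RNAs known from elsewhere to be methylated and mostly nuclear, but with earlier results of these data known. The 7 were MALAT1, NEAT1, KCNQ1OT1, NORAD, GAS5, SNHG1 and TUG1, and each had 1 row. The first library was made from cells bearing a control hairpin RNA (sh-CTL) and another from cells whose hairpin silences METTL3 (sh-METTL3). The last was made from sh-CTL cells kept for 24 h in 80 nM NMS-P937, an inhibitor of the mitotic kinase PLK1 (sh-CTL + PLK1i, below also PLK1i). The first 2 libraries were labelled as untreated, with no vehicle named. All 3 groups carried a hairpin, the knockdown was 1 hairpin line, and each group was 1 library. The differences below are therefore differences between libraries with no replicate check and no p-value, and every interval covers counting error only. The dose of PLK1i was one the study chose to arrest cells in G2/M.

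METTL3 is the catalytic subunit of the complex that writes N6-methyladenosine (m6A) on nascent RNA, most often at an adenosine within the letters GGACU. On lncRNAs that remain in the nucleus the mark is read by nuclear proteins such as YTHDC1, and it can loosen a hairpin so that HNRNPC reaches a U-rich stretch, a mechanism worked out on MALAT1. MALAT1 gathers in nuclear speckles, NEAT1 is the scaffold on which paraspeckles form, and KCNQ1OT1 is the antisense RNA that silences its imprinted neighbours in cis. NORAD holds Pumilio proteins and guards chromosome number, GAS5 and SNHG1 are spliced hosts of small nucleolar RNAs (snoRNAs), and TUG1 has reported roles in chromatin regulation and in the response to DNA damage.

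In the cells with less METTL3, the 7 lncRNAs kept close to their control levels. GAS5 was the highest of them against control, at 122% of sh-CTL, and NEAT1 the lowest, at 85.1%. In the cells with PLK1i, MALAT1 stood at 162% of sh-CTL while the other 6 lay between 89.7% and 110%. None of the 7 differed by 2-fold in either comparison, beside 6.37% of all 14949 genes after METTL3 knockdown and 2.52% with PLK1i. Those shares include many genes with few reads, whereas each of the 7 averaged 500 normalized counts or more. Among the 9074 genes at that level, 126 differed by 2-fold after METTL3 knockdown and 10 with PLK1i. The lack of a 2-fold difference thus does not set the 7 apart.

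The label of the group was checked where the files allowed it. With 747 to 823 normalized counts, KCNQ1OT1 was not abundant, ranking between 7758 and 8033 of 14949 genes in the 3 libraries, whereas the other 6 ranked between 240 and 1429. Neither m6A nor the place of the RNA in the cell was measured in these files, and NORAD, GAS5 and SNHG1 are also known from the cytoplasm. TUG1 is annotated as protein coding in GENCODE 44, the annotation used here, so the 1582 genes called lncRNA below do not include it. METTL3 itself stood at 41.9% of sh-CTL in sh-METTL3 and had a log2 change of -0.02 in sh-CTL + PLK1i. The total of reads over listed genes was 37449259 in sh-CTL, 46944920 after METTL3 knockdown and 47727541 with PLK1i. The epithelial keratins KRT8 and KRT18 had 43957 to 124197 reads in each library, and KRT19 had 3361 to 5710. VIM, more often a mesenchymal marker, had more reads than any of these keratins, 199813 to 267673. EPCAM and CDH1 had no row in the table. Of 5 markers of other cell types 4 had no row and COL1A1 had 6 to 36 reads.

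Sequence carries part of what is known of these RNAs, and the stretches below were read from the GRCh37 genome on the strand of the gene and written as DNA, 5′ to 3′. Letters were searched in the canonical transcript of each gene, on the transcript strand only. GGACT, the commonest form of the m6A consensus, was found 17 times in MALAT1, 19 times in NEAT1, 7 times in TUG1, 2 times each in NORAD and GAS5, and once in SNHG1 and in the short canonical transcript of KCNQ1OT1. Per kilobase this came to 1.63 in MALAT1, higher than in 83.8% of the 13017 canonical transcripts of at least 1000 bases, and to 0.370 in NORAD, higher than in 13.5%. NEAT1 with 0.835, SNHG1 with 0.861 and TUG1 with 0.937 lay near the median of those transcripts, 0.919. The letters are so common that 92.3% of those transcripts held them at least once, and a match is not a methylated site.

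The MALAT1 hairpin on which the m6A switch was described sets a U run against a consensus site. In MALAT1, 4 matches of GGACT were preceded by TTTTT that ended at most 15 bases before them, and NEAT1 and TUG1 had 1 such match each. Of the 13017 transcripts, 7.51% had at least 1, and 3 transcripts, MALAT1 among them, had 4 or more. These stretches are shown because the consensus letters and a T run lie side by side in them, with the T run and GGACT in capitals. Which of them is methylated in these cells was not measured.
MALAT1, chr11:65267785-65267814, plus strand: accaacttaatgTTTTTgcattGGACTttg
MALAT1, chr11:65267819-65267848, plus strand: aagattaTTTTTTaaatcctgaGGACTagc
MALAT1, chr11:65270802-65270831, plus strand: atcgagccTTTTTaaaattgtaGGACTtgt
MALAT1, chr11:65272771-65272800, plus strand: acctgaTTTTTattagtaatgaGGACTtgc
NEAT1, chr11:65204823-65204852, plus strand: ctcTTTTTaTTTTTattttggaGGACTcta
TUG1, chr22:31367603-31367632, plus strand: ttTTTTTTaTTTTTgaattttgGGACTgtt

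MALAT1 and the long form of NEAT1 share an unusual end. Neither carries a poly(A) tail there: RNase P cuts the transcript and an A-rich tract folds back into a triple helix that protects the end. The tract is shown in capitals for both, because the libraries were made with a kit that selects polyadenylated RNA. The NEAT1 stretch is the last 30 bases of its annotated long transcript. In MALAT1 the tract ended at base 8477 of a gene model that runs on to base 10434. AAAAAGCAAAA was found in 1.46% of the 13017 transcripts, and in MALAT1 it occurred a second time near the 5′ end, at chr11:65265966-65265995.
MALAT1, chr11:65273558-65273587, plus strand: ttttctagcttAAAAAAAAAAAAAGCAAAA
NEAT1, chr11:65212982-65213011, plus strand: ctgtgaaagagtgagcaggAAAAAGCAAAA

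NORAD is known as a decoy for Pumilio proteins, which bind the letters TGTANATA. They occurred 15 times in its 5401 bases, or 2.78 per kilobase, and 4 of the 13017 transcripts, NORAD included, had as many. NEAT1 held 6 matches, TUG1 held 2 and the canonical transcripts of the other 4 held none, while 31.5% of transcripts had at least 1. In NORAD 3 pairs of matches started 9 bases apart, and these are shown with the matches in capitals.
NORAD, chr20:34637419-34637448, minus strand: ttatctgTGTATATAgTGTACATAaaggac
NORAD, chr20:34636222-34636251, minus strand: gctatacTGTATATAtTGTATATAtaacgg
NORAD, chr20:34635586-34635615, minus strand: tgtgctgTGTATATAgTGTATATAagcgga

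GAS5 belongs to the genes that begin with a pyrimidine run, the feature that ties an RNA to the growth-regulated translation machinery. Its first 30 bases are given with that run of 6 in capitals. A run at least as long opened 4.10% of the 14675 canonical transcripts. The annotated start of SNHG1 had no such run, although the true start of a transcript need not be the annotated one.
GAS5, chr1:173837098-173837127, minus strand: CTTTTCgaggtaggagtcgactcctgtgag

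**Figure D1:**
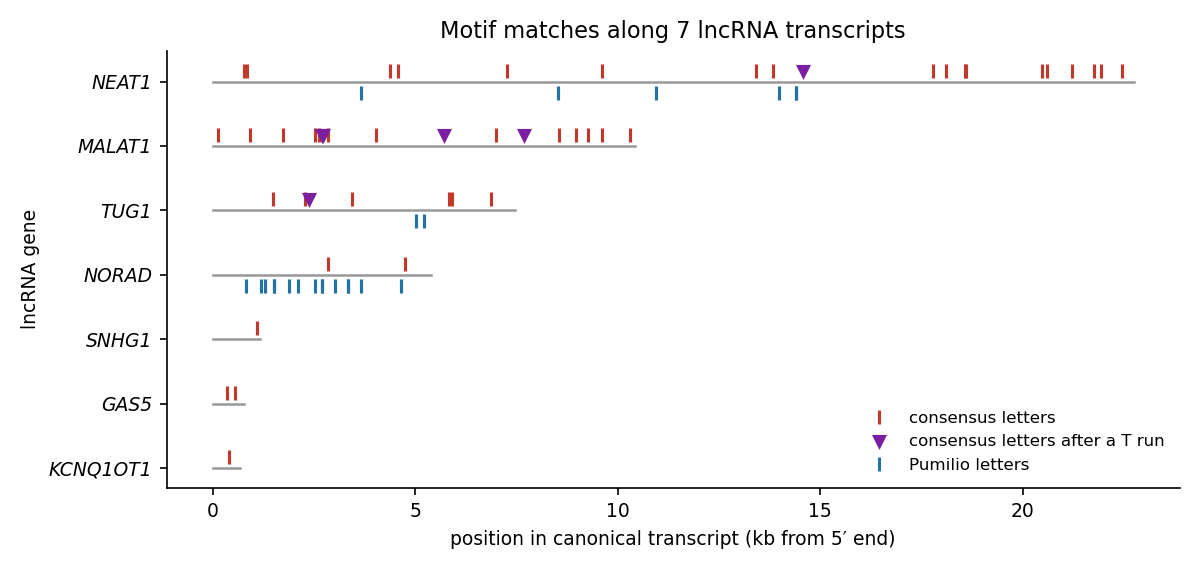
Each grey line is the canonical transcript of 1 lncRNA gene, drawn to scale in kilobases from its 5′ end, with red ticks for GGACT, purple triangles for GGACT after a T run and blue ticks for the Pumilio letters; matches lying close together overlap. MALAT1 carried 4 of the triangles, and NORAD carried 15 Pumilio matches on 5401 bases.

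The values of the 7 genes are given as normalized counts, that is, reads divided by the size factor of the library that the authors' values carry, on which a single read counts as 1.17 in sh-CTL, 0.927 after METTL3 knockdown and 0.921 with PLK1i. Changes are differences of log2(normalized count + 1) from sh-CTL, and intervals in brackets are exact 95% Clopper-Pearson intervals of the read ratio. Genes with a mean of at least 500 normalized counts, 9074 in all and 153 of them lncRNA genes, are called well measured, and all 7 were among them. Size factors set over lncRNA genes only would move the median change of all genes to -0.11 in sh-METTL3 and 0.12 with PLK1i, and the changes of the 7 by a like amount.

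MALAT1 (ENSG00000251562, GRCh37 chr11:65265111-65275544, plus strand, a single exon) had 8468 normalized counts in sh-CTL, 8006 after METTL3 knockdown and 13720 with PLK1i, from 7262, 8637 and 14903 reads. The PLK1i library stood apart from both others. The log2 change was 0.70 with PLK1i [0.66 to 0.74] and -0.08 in sh-METTL3 [-0.13 to -0.04]. Only 26 of the 9074 well measured genes had a higher change with PLK1i, and MALAT1 ranked 5 among the well measured lncRNA genes. In sh-METTL3, 68.4% of well measured genes had a change at least as large in size. Among the lncRNA genes it ranked 6 in level in sh-CTL, 8 after METTL3 knockdown and 2 with PLK1i, behind NEAT1.

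NEAT1 (ENSG00000245532, chr11:65190245-65213011, plus strand) lies 52100 bases upstream of MALAT1 and had the highest count of any lncRNA gene in every library, with 23749 normalized counts in sh-CTL, 20199 after METTL3 knockdown and 21887 with PLK1i. The control was the highest of the 3. The log2 change was -0.23 in sh-METTL3 [-0.26 to -0.21] and -0.12 with PLK1i [-0.14 to -0.09]. The latter came to -0.033 with the trend in GC content and transcript length taken out and to -0.003 with size factors set over lncRNA genes only. In sh-METTL3, 15.8% of well measured genes had a lower change, so the difference exceeded counting error and was of a common size. The short NEAT1 form, which is polyadenylated, and the long form that builds paraspeckles share their 5′ part, and a count per gene does not separate them.

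The pair can be compared within each library, where the size factor cancels. There were 0.357 MALAT1 reads for each NEAT1 read in sh-CTL [0.347 to 0.366], 0.396 in sh-METTL3 [0.387 to 0.406] and 0.627 with PLK1i [0.614 to 0.640]. The intervals of the 3 libraries did not overlap, and the ratio was highest with PLK1i. Another 3 short RNAs that lack a tail also had reads, and with PLK1i they stood at log2 changes of -0.36 (RMRP, of RNase MRP), 0.12 (RN7SK, which holds the elongation factor P-TEFb) and -0.09 (RPPH1, of RNase P). In sh-METTL3 the same 3 RNAs were at -4.27, -1.44 and -1.35, from 77, 204 and 70 reads in sh-CTL and 4, 94 and 34 in sh-METTL3, while MALAT1 was at -0.08. The part of tail selection in these values was not tested. RNA was taken from whole cultures, in which more RNA per cell and a larger share of cells at one stage of the cycle cannot be told apart.

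**Figure D2:**
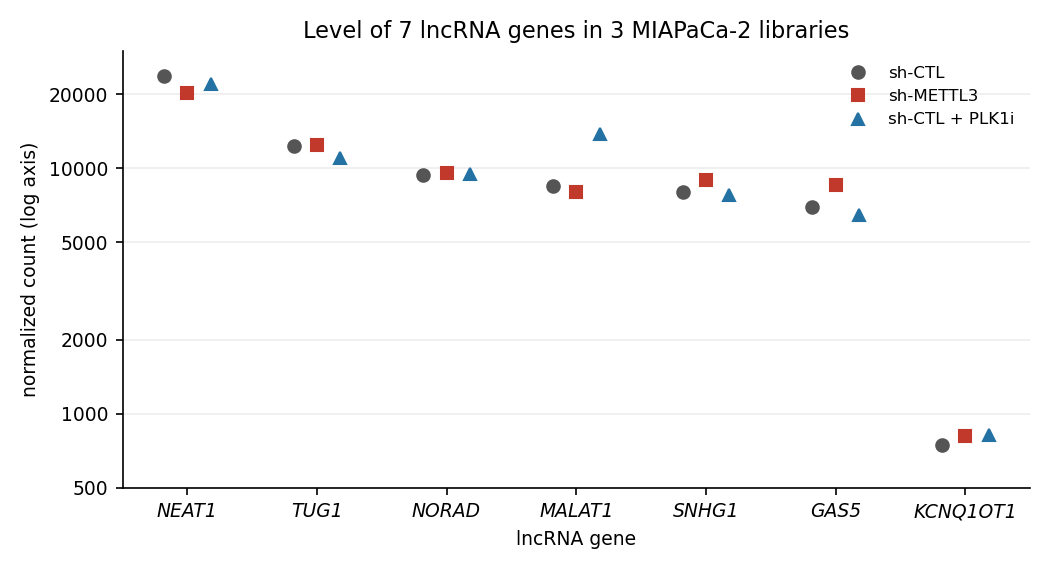
Normalized counts of the 7 lncRNA genes, on a log axis, in the sh-CTL (grey circles), sh-METTL3 (red squares) and sh-CTL + PLK1i (blue triangles) libraries, 1 library each and hence no error bar. The triangle of MALAT1, at 13720, stands above its other points, and KCNQ1OT1 lies at 747 to 823, far below the rest.

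The snoRNA hosts GAS5 and SNHG1 were the members whose interval lay above 0 in sh-METTL3. GAS5 (ENSG00000234741, chr1:173827697-173838020, minus strand, 12 exons in its canonical transcript) is spliced and its exons are normally degraded in step with translation. It had 6966 normalized counts in sh-CTL, 8530 after METTL3 knockdown and 6439 with PLK1i. The sh-METTL3 library was the highest, with a log2 change of 0.29 [0.25 to 0.34] that 8.20% of well measured genes exceeded, and the change with PLK1i was -0.11 [-0.16 to -0.06].

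SNHG1 (ENSG00000255717, chr11:62619450-62623425, minus strand, 11 exons) had 7999, 8907 and 7793 normalized counts in sh-CTL, sh-METTL3 and sh-CTL + PLK1i. Its log2 change was 0.16 in sh-METTL3 [0.11 to 0.20] and -0.04 with PLK1i [-0.08 to 0.01], the latter within counting error. The ratio of GAS5 to SNHG1 reads was 0.871 in sh-CTL [0.841 to 0.902], 0.958 in sh-METTL3 [0.931 to 0.986] and 0.826 with PLK1i [0.800 to 0.853]. Relative to NEAT1, GAS5 had 0.293 reads per NEAT1 read in sh-CTL, 0.422 after METTL3 knockdown and 0.294 with PLK1i. GAS5 had the highest change of the members in sh-METTL3 and NEAT1 the lowest, so the higher ratio there follows from the choice of pair. With PLK1i the changes of GAS5 and NEAT1 were nearly equal, at -0.11 and -0.12, and the like ratio restates this.

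A list of 22 other snoRNA host lncRNAs, written with results of these data known, was set beside them. Of its genes 21 had a row, and 19 of the 21 had a change above 0 in sh-METTL3, beside 50.2% of all genes. Of lncRNA genes as a class, 940 of 1582 were above 0, and 91 of the 153 well measured ones. The median log2 change of the 21 was 0.23, against 0.001 for all genes and 0.08 for well measured lncRNA genes. At least 1.5-fold higher were 3 of the 21, beside 7.76% of all genes, and none was 1.5-fold lower, beside 6.7%. Most of the 21 were well measured, and of the 9074 well measured genes 184 were 1.5-fold higher and 246 lower. By the naming rule, the genes that moved furthest were DANCR, at 2501, 4602 and 2088 normalized counts in sh-CTL, sh-METTL3 and sh-CTL + PLK1i, and SNHG30, at 429, 723 and 410. SNHG15 was the clearest exception in sh-METTL3, with a log2 change of -0.37 [-0.47 to -0.27], and was named after its value was seen. With PLK1i the median of the 21 was -0.04, and 8 of 21 were above 0, beside 50.5% of all genes and 59 of 153 well measured lncRNA genes. None was 1.5-fold higher, beside 3.97% of all genes, and 1 was 1.5-fold lower, beside 4.01%. Of the 9074 well measured genes, 43 were 1.5-fold higher with PLK1i and 34 lower. Nonsense-mediated decay is known to remove the spliced exons of GAS5 and many of these hosts. Among the RNAs of 10 of its factors, 2 had a change above 0 in sh-METTL3, beside 50.2% of all genes. The median of the 10, -0.07, was small beside the SD of 0.32 over well measured genes. The lowest were the adaptor UPF2 at -0.55 [-0.63 to -0.47] and SMG5 at -0.35 [-0.40 to -0.30], while the helicase UPF1 was at 0.17. With PLK1i 7 of the 10 were above 0, beside 50.5%, with UPF2 at 0.07 and SMG5 at 0.19. None of the 10 reached 1.5-fold in either comparison, beside 4.74% of well measured genes in sh-METTL3 and 0.849% with PLK1i. The part of these factors in the levels of GAS5 and SNHG1 was not tested.

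NORAD (ENSG00000260032, chr20:34633540-34638940, minus strand, 1 exon) was the steadiest of the 7 over both comparisons, although TUG1 was nearer to control in sh-METTL3. NORAD had 9407 normalized counts in sh-CTL, 9542 after METTL3 knockdown and 9462 with PLK1i. The log2 changes were 0.02 [-0.02 to 0.06] and 0.01 [-0.03 to 0.05], both within counting error with the deposited size factors. In sh-METTL3 91.9% of well measured genes, and with PLK1i 95.6%, had a change at least as large in size. With size factors set over lncRNA genes only, NORAD was at -0.09 and 0.12, outside those intervals. Among the genes of 5 proteins that bind NORAD, none reached 1.5-fold in RNA, beside 4.74% of well measured genes in sh-METTL3 and 0.849% with PLK1i. TOP1, the topoisomerase that relaxes DNA, had 0.07 and 0.21 in sh-METTL3 and with PLK1i. RBMX, a splicing protein of the same complex, had 0.00 and 0.19, and PUM2, a Pumilio protein, had -0.04 and -0.05.

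TUG1 (ENSG00000253352, chr22:31365231-31375381, plus strand, 3 exons) had 12275 normalized counts in sh-CTL, 12408 after METTL3 knockdown and 11009 with PLK1i. The PLK1i library was the lowest. The log2 change was -0.16 with PLK1i [-0.20 to -0.12], the lowest of the 7 there, and 16.6% of well measured genes were lower still. In sh-METTL3 it was 0.02 [-0.02 to 0.05].

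KCNQ1OT1 (ENSG00000269821, chr11:2618538-2721233, minus strand) had 747 normalized counts in sh-CTL, 814 after METTL3 knockdown and 823 with PLK1i, from 641, 878 and 894 reads. Both changes, 0.12 [-0.03 to 0.27] and 0.14 [-0.01 to 0.29], were within counting error. The gene runs antisense through KCNQ1, and the setting for strand in the counting is not given in the sources used here. KCNQ1 had 356, 234 and 346 normalized counts, a log2 change of -0.60 in sh-METTL3 [-0.85 to -0.36] and -0.04 with PLK1i. Of 9 genes of the imprinted 11p15 domain, 1 was at least 1.5-fold lower in sh-METTL3, KCNQ1, beside 6.7% of all genes. With PLK1i 1 was, CDKN1C, beside 4.01%. CDKN1C encodes the cyclin-dependent kinase inhibitor p57 that the domain is best known for, and was at -1.03 [-1.58 to -0.54] from 85 and 52 reads. The medians of the 9 were 0.04 and -0.002.

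**Figure D3:**
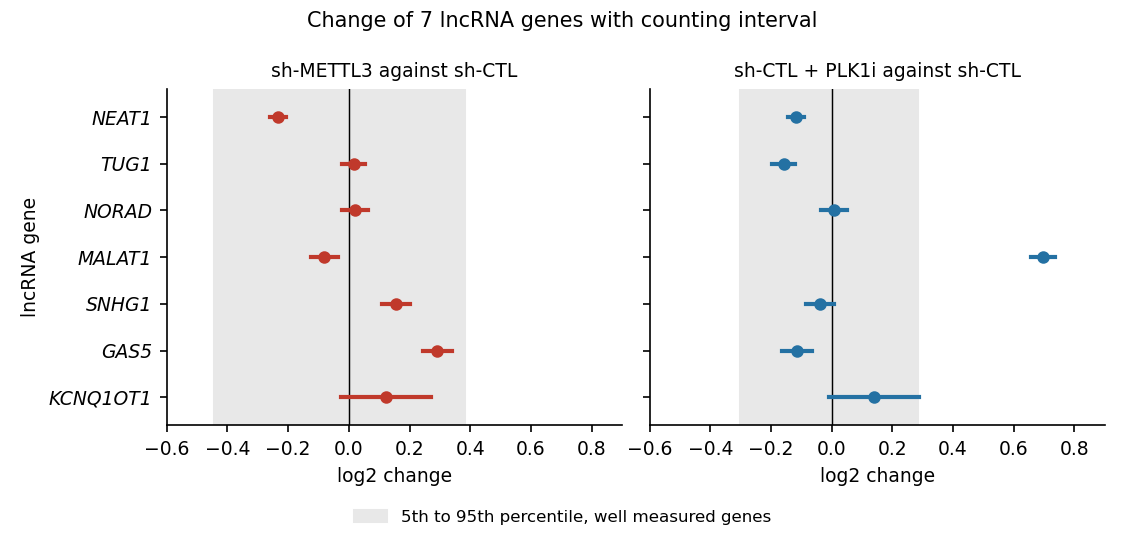
Log2 change from sh-CTL of the 7 lncRNA genes in sh-METTL3 (left) and sh-CTL + PLK1i (right), with 95% counting intervals as bars and the 5th to 95th percentile of 9074 well measured genes in grey. All points on the left lie inside the grey band, and on the right MALAT1, at 0.70, is the one outside.

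As a group, the 7 had a median log2 change of 0.02 in sh-METTL3 and -0.04 with PLK1i, which turned to -0.088 and 0.077 with size factors set over lncRNA genes only. With the deposited factors all genes had 0.001 and 0.002 and well measured lncRNA genes 0.08 and -0.05. A change above 0 was seen in 5 of 7 and in 3 of 7, beside 50.2% and 50.5% of all genes. Of the 153 well measured lncRNA genes, 91 and 59 were above 0. The counting interval excluded 0 in 4 of 7 in each comparison, beside 55.2% and 45.9% of all genes, shares near those of the 7. A 1.5-fold difference was reached by none in sh-METTL3, where 4.74% of well measured genes reached it, and by MALAT1 with PLK1i, where 0.849% did. The changes spread with an SD of 0.17 in sh-METTL3 and 0.30 with PLK1i, beside 0.32 and 0.19 over well measured genes. The SD with PLK1i rests on MALAT1, at 0.70, as the rest lay between -0.16 and 0.14. The same sh-CTL library serves both comparisons. The 7 together took 0.159% of reads in sh-CTL, 0.157% after METTL3 knockdown and 0.162% with PLK1i. Without MALAT1 these shares were 0.140%, 0.139% and 0.131%.

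**Figure D4:**
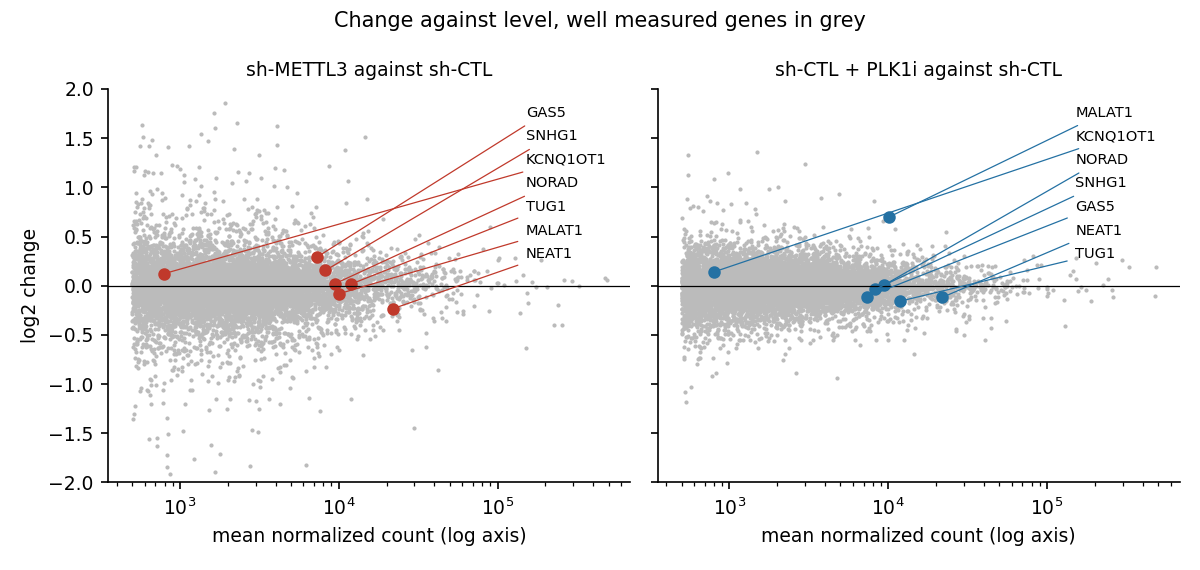
Log2 change from sh-CTL against the mean normalized count (log axis) of 9074 well measured genes in grey, with the 7 lncRNA genes in colour, for sh-METTL3 (left) and sh-CTL + PLK1i (right); 29 genes lie beyond the vertical range. With PLK1i, 26 of the 9074 genes had a higher change than MALAT1.

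Levels between genes were compared per kilobase of annotated exon. In sh-CTL the order was SNHG1 at 2012 normalized counts per kilobase, NORAD at 1742, GAS5 at 1412, TUG1 at 1209, NEAT1 at 1043, MALAT1 at 812 and KCNQ1OT1 at 8.07, with a median of 1209. NEAT1, first in reads, was thus ranked behind SNHG1, NORAD, GAS5 and TUG1 per kilobase of its 22767 bases. With PLK1i MALAT1 moved up to 1315, next to GAS5 at 1306 and above TUG1 at 1084 and NEAT1 at 961. In sh-METTL3 GAS5 reached 1730, next to NORAD at 1767. These neighbouring pairs lay close together, and with 1 library a group the order of such neighbours is not settled. The order also rests on the length chosen. Over canonical transcripts, 768 bases for GAS5, 1162 for SNHG1 and 679 for KCNQ1OT1, the levels in sh-CTL were 9071, 6884 and 1101, and KCNQ1OT1 then stood above NEAT1 and MALAT1.

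For each of the 7, the well measured lncRNA gene nearest in its 2 log2 changes was sought among 152 or 153 candidates. NORAD was closest to SNHG16, another snoRNA host, at a distance of 0.01 log2 units, SNHG1 to LINC01278 at 0.01, KCNQ1OT1 to ENTPD1-AS1 at 0.01, TUG1 to SLX1A-SULT1A3 at 0.02, NEAT1 to MCM3AP-AS1 at 0.04 and GAS5 to the gene ENSG00000283462 at 0.04. MALAT1 had the most distant match, ENSG00000286853, at 0.10, with changes of -0.01 in sh-METTL3 and 0.77 with PLK1i from 635, 792 and 1371 reads. Within 0.1 log2 units MALAT1 had this 1 gene, whereas NORAD had 15.

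The genes around each locus were examined, within 100 kb and with a mean of at least 50 normalized counts. NEAT1 had 8 such neighbours, including MALAT1. The median of the 8 was -0.17 in sh-METTL3, with 2 of 8 above 0, beside 50.2% of all genes. FRMD8, the nearest at 9249 bases, went from 4128 normalized counts in sh-CTL to 2889 in sh-METTL3 and 3440 with PLK1i, and TIGD3 from 308 to 116 and 277. The 9 neighbours of MALAT1, several of them the same genes and NEAT1 among them, had medians of -0.11 and -0.12. The latter median is the change of NEAT1 itself. None of the 9 was as high with PLK1i as MALAT1. SLC3A2, the amino acid transporter subunit that lies 51 bases from SNHG1, was at -0.22 and 0.26. In sh-METTL3 this was opposite in sign to SNHG1. With PLK1i the SNHG1 change of -0.04 was within counting error, so its sign is not settled. MORC2, 471 bases from TUG1, was at -0.04 and 0.06. On the opposite strand, ZBTB37 overlaps GAS5 by 801 bases, with a change of 0.13 in sh-METTL3, and TALAM1, which overlaps MALAT1 by 8121 bases, had no row.

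The genes of proteins that work with these RNAs were compared last, by their RNA counts, as no protein was measured in these files. Of 14 paraspeckle proteins, none reached 1.5-fold, beside 4.74% of well measured genes in sh-METTL3 and 0.849% with PLK1i. Their medians were 0.01 in sh-METTL3 and -0.01 with PLK1i. RBM14, which is required for paraspeckles to form, had 5138 normalized counts in sh-CTL, 4597 after METTL3 knockdown and 7290 with PLK1i, a log2 change of 0.50 in the last [0.45 to 0.56], and TAF15 was at 0.29 in sh-METTL3 [0.25 to 0.33]. The core proteins NONO and SFPQ were at 0.19 and -0.12 in sh-METTL3 and at -0.05 and 0.00 with PLK1i. Of 10 nuclear speckle proteins none reached 1.5-fold, beside the same shares, with medians of -0.02 and -0.03. Among them U2AF2, which recognises the 3′ splice site, was at -0.52 in sh-METTL3 [-0.55 to -0.48], and SRRM2, a core of speckles, at -0.10 and -0.14. Thus the RNA counts of these partner genes of MALAT1 and NEAT1 stood nearer to control with PLK1i than MALAT1 did, RBM14 coming closest to MALAT1.

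Of the 4 nuclear m6A-binding proteins none reached 1.5-fold either, beside 4.74% of well measured genes in sh-METTL3 and 0.849% with PLK1i. YTHDC1 was at -0.07 in sh-METTL3 [-0.15 to 0.01] and 0.22 with PLK1i [0.14 to 0.30], HNRNPA2B1 at -0.21 and -0.06, and HNRNPC at 0.01 and -0.03. Of 19 nuclear RNA decay genes none did, beside the same shares, with medians of 0.04 and -0.02. ZFC3H1, of the complex that hands polyadenylated nuclear RNA to the exosome, was at -0.30 with PLK1i [-0.38 to -0.22], and DIS3, an exosome nuclease, at 0.29 [0.21 to 0.36].

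Other well-known lncRNAs, several of them with few reads, covered a wider range of changes. Of a list of 28, 21 had a row, and 6 of them were at least 1.5-fold lower in sh-METTL3, beside 6.7% of all genes, the 3 short untailed RNAs given above among them. LINC00511, named by the rule with RMRP, had 480 normalized counts in sh-CTL, 149 after METTL3 knockdown and 445 with PLK1i. With PLK1i 2 were 1.5-fold higher, beside 3.97%, and 2 lower, beside 4.01%, and LUCAT1, a stress-induced lncRNA named after its value was seen, went from 128 reads in sh-CTL to 500, a log2 change of 1.62 [1.34 to 1.92]. UCA1, the most abundant of this list with 12039 normalized counts in sh-CTL, was at 0.09 and 0.17. The medians of the 21 were -0.02 and -0.09.

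**Figure D5:**
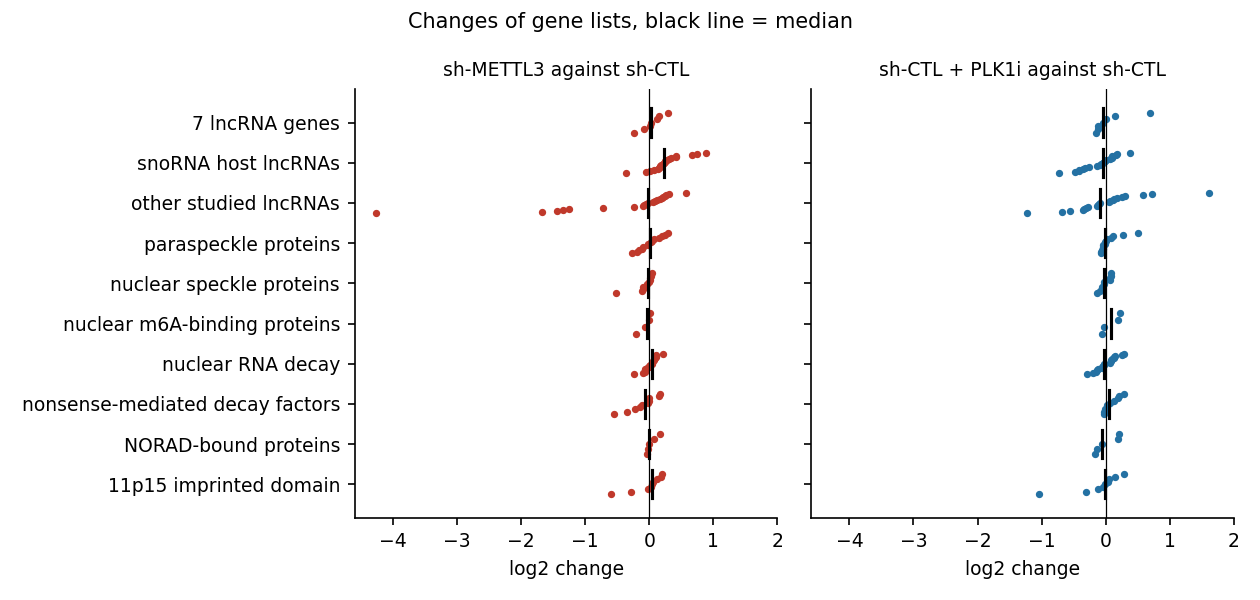
Log2 change from sh-CTL of each gene in the 7 lncRNA genes and 9 other lists, in sh-METTL3 (left) and sh-CTL + PLK1i (right), with 1 dot a gene and a black line at the median. The snoRNA hosts have their median at 0.23 on the left, and the dots of the protein lists lie within 1.5-fold of 0 apart from KCNQ1 and CDKN1C of the 11p15 domain.

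The density of GGACT was set against the change in sh-METTL3 as a description across genes, which are not independent replicates. Spearman's rho was -0.03 over 8449 well measured genes and -0.16 over 122 well measured lncRNA genes, both with sequence of at least 1000 bases. MALAT1, with 1.63 matches per kilobase, was at -0.08 and NORAD, with 0.370, at 0.02. The 2 members with the most different changes went the other way, GAS5 with 2.60 matches per kilobase at 0.29 and NEAT1 with 0.835 at -0.23. The density of GAS5 rests on 2 matches in 768 bases, below the limit of 1000 bases, so GAS5 entered neither rho.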

How the data were processed

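RNA of 3 MIAPaCa-2 cultures, 1 library a group, was sequenced from a stranded, poly(A)-selecting kit. The authors deposited log2 values per gene, which held log2 of a scaled count plus 4. The submitters' processing notes name FastQC 0.11.9, STAR 2.7.10, RSEM 1.3.3 and hg19, without roles, and the tool that scaled the counts is not given in the sources used here. Abbreviations in the column names tied each column to its sample, and groups were taken from the labels. Undoing the log2 gave whole reads (100% within 0.1 read) and size factors of 0.858, 1.08 and 1.09.

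Changes used a pseudocount of 1, which makes low genes look less changed. Genes with a mean below 1 normalized count were to be left out, and none was. Calls were made at 2-fold, with 1.5-fold beside it. With no replicates no test was run. No molecular identifiers were used, so reads are not independent molecules. Calculations used Python 3.11.15, numpy 2.4.6, pandas 2.3.3 and scipy 1.17.1, and were tested on simulated libraries. Gene models came from GENCODE 44 on GRCh37, where 14744 of 14949 identifiers were found, and printed stretches were compared with the genome sequence. Named genes were the 7 genes, METTL3, the nearest lncRNA by pattern, neighbouring genes, and from each list the 2 genes with the largest change. PUM2, UPF1, NONO, SFPQ, HNRNPC, UCA1, RN7SK, RPPH1, SNHG15, LUCAT1 and TIGD3 fall outside this rule and were named after their values were seen. Members, lists and alternatives were chosen with earlier results of these data known. Alternatives changed the pseudocount, size factors, GC and length trend, filter, threshold and transcript length. A few genes that the naming rule selects are not reported here.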

Additional observations from a re-analysis of the deposited data

How the results depend on the processing

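Of 13 alternatives, 8 can alter a change of the 7 genes. Among them, other pseudocounts and size factors recomputed as a median of read ratios over all genes left these changes almost untouched. Values under those settings were bound to stay inside the counting interval. Under the 8 together, 98 of 112 values stayed inside it. Of the other 14, 12 came from size factors set over lncRNA genes only, which shifted the median of all genes to -0.11 in sh-METTL3 and 0.12 with PLK1i, and 2 were NEAT1 with the GC and length trend taken out, at -0.20 in sh-METTL3 and -0.033 with PLK1i. With the lncRNA size factors the median of the 7 was -0.088 and 0.077, NORAD and TUG1 changed sign in sh-METTL3 (-0.09 and -0.09), GAS5 and SNHG1 with PLK1i (0.001 and 0.08), and the genes past 2-fold were 435 higher and 533 lower against 512 and 440 in sh-METTL3, and 259 and 121 against 208 and 169 with PLK1i. NORAD also took the other sign with PLK1i under factors from total reads and the upper quartile, at -0.0004 and -0.007. MALAT1 with PLK1i kept between 0.68 and 0.81, NEAT1 in sh-METTL3 between -0.34 and -0.20 and GAS5 in sh-METTL3 between 0.18 and 0.31. Smaller changes moved further for their size: NEAT1 with PLK1i from -0.13 to -0.003, TUG1 with PLK1i from -0.17 to -0.04, SNHG1 in sh-METTL3 from 0.05 to 0.17, MALAT1 in sh-METTL3 from -0.19 to -0.06, and KCNQ1OT1 from 0.01 to 0.14 and from 0.12 to 0.25. Of 14949 genes, 952 in sh-METTL3 and 377 with PLK1i differed by 2-fold. These were 480 and 89 with a mean of at least 50, 126 and 10 with at least 500, 2161 and 1193 at 1.5-fold, 420 and 106 at 3-fold, and 169 with PLK1i at a pseudocount of 10. At 1.5-fold 1 of the 7 was called with PLK1i. The fewer calls under stricter filters follow from fewer genes with few reads. No paired analysis was possible because each group held 1 library. Leaving out a replicate was likewise not possible. The spread between cultures is unknown here, and depth limits KCNQ1OT1 most.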
